A study of Mus musculus with 36 samples.

Results

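Cytosolic ribosomal proteins are the protein parts of the ribosome that works outside the mitochondria. The 44 genes described here, 19 of the small subunit and 25 of the large subunit, were listed by name. Their transcripts were measured with Mouse WG-6 BeadArrays of Illumina in tumours of Lewis lung carcinoma (LLC), a transplantable line from a lung tumour of a mouse. Of the 44 genes, 34 had at least 1 of the array's listed probes, among 19057 genes in all, and these 34 genes had 52 probes. No listed probe was found for Rps18, Rps27, Rpl5, Rpl7, Rpl8, Rpl10, Rpl11, Rpl13, Rpl15 and Rpl18. The probes of Rps20, Rps23 and Rpl6 stayed at background on nearly all arrays, with detection on 0, 0 and 1 of 30 tumours, and were not tested. That left 31 genes, 15 of the small subunit and 16 of the large subunit, of which 30 were detected on all 30 tumours. Rpl14 was detected on only 7 tumours, so its tumour values lie close to background.

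The tumours came from male mice, and all 4 groups carried the same tumour line. Of these, 5 tumours were from middle-aged mice irradiated with 56Fe, charged iron nuclei such as occur in space, in 5 exposures of 0.2 Gy. A further 7 were from middle-aged unirradiated mice, 8 from young mice given the same iron-ion exposures and 10 from young unirradiated mice. The other 6 arrays were chip controls with RNA from cultured LLC cells, in 2 batches of 3. The labels give no age in weeks and no time between exposure and tumour. They name a batch for the cell arrays only, so whether batch lines up with the tumour groups is unknown. The study calls the tumours biological replicates, but nothing states that every tumour had its own host, so the p-values reflect only how these samples scatter, which may partly be technical. Precision is limited by how many arrays each group has.

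A ribosome is built from ribosomal RNA and about equal numbers of copies of most of its proteins. It has a small subunit that reads the messenger RNA and a large subunit that joins amino acids. The messenger RNAs of these proteins begin with a stretch of pyrimidines, through which the kinase mTOR controls their translation, and are among the most abundant in growing cells. Their genes are known for short promoters without a TATA box and for binding sites of several general activators.

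The start regions of a few members are shown here because the later comparisons turn on them. Promoter sequences from RefSeq on GRCm38.p6 were available for 37 of the 44 members (42 start sites). Each line gives the 40 bases before and the first 20 bases of the annotated transcript, 5′ to 3′ on the strand of the gene. Capitals mark CCGGAAG, a sequence bound by ETS-family activators, searched on both strands, and CTTTC, a pyrimidine stretch searched on the strand of the gene within 20 bases of the start. These short sequences were chosen after the expression values had been seen.
Rpl22, first start site, chr4:152324396-152324455, plus strand: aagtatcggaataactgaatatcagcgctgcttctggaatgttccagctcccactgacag
Rpl22, second start site, chr4:152325686-152325745, plus strand: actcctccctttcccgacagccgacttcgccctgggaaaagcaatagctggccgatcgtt
Rpl14, chr9:120571477-120571536, plus strand: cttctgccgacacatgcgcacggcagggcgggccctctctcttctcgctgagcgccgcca
Rps3a1, chr3:86142649-86142708, minus strand: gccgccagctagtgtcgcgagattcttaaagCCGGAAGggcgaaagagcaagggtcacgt
Rplp0, chr5:115559427-115559486, plus strand: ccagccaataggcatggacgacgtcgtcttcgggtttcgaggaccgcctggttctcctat
Rpl38, chr11:114668540-114668599, plus strand: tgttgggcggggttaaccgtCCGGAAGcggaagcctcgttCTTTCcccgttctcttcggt

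Over the whole 300 bases around the start (250 before and 50 after), CCGGAAG was found for 15 of 37 members (40.5%), against 2683 of 27025 genes with a promoter (9.93%). CTTTC within 20 bases of the start was found for 12 of 37 members (32.4%), against 1741 of 27025 genes (6.44%). The sequence TATAAA, searched in the 50 bases before the start on the strand of the gene, was found for 0 of 37 members, against 851 of 27025 genes (3.15%). These are counts of letters in annotated windows, and the annotated start can differ from the start used in these tumours.

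Most members sat at the top of the array's range. Intensity is given here as log2 of the background-corrected, quantile-normalized signal. Of the 124 probes on the array with a mean over 14 on that scale in the tumours, 23 belonged to members. The mean level exceeded 13 for 25 of the 31 tested genes. The others were Rps25 (12.92), Rps3a1 (11.77), Rpl4 (11.67), Rpl22 (11.59), Rplp0 (11.24) and Rpl14 (5.32). A probe's brightness depends on its sequence as well as on its transcript, so these levels do not rank the genes by abundance. The deposited intensity of the probe used for Rps2 ran from 7565 to 28129 over the tumours. The probe used for Rpl22, an RNA-binding large-subunit protein, covered 305 to 9652.

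The members' median standard deviation between tumours of a group was 0.249 on the log2 scale, against 0.322 over the 10907 genes tested. The 25 members over 13 had 0.249, against 0.22 for the 207 other genes over 13. Without the bright arrays described below, these medians were 0.161 and 0.140. The steadiest were Rplp1, a protein of the ribosome's acidic stalk (SD 0.0761), Rps2 (0.0877) and Rpl38 (0.127). Their probes were near the top of the range, with mean levels of 14.46, 14.45 and 14.22. Over all 30 tumours the other detected probe of Rps2 had an SD of 0.151, against 0.0923. That of Rpl38 had 0.256, against 0.142. The most variable were Rpl32 (0.450), Rps25 (0.430) and Rps7 (0.420), and without the bright arrays their values were 0.206, 0.322 and 0.180. On the 6 control arrays of LLC cells, batch 2 minus batch 1 had a median of 0.00 over the members, and it ran between -0.33 (Rpl27) and 0.19 (Rpl35). Over all 9241 genes detected on at least 3 cell arrays the median was -0.01. These batches were not tested.

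On a few arrays most members were low together. Before normalization, the members' median intensity was 3266 and 6379 on the dim arrays of young irradiated replicates 6 and 8, while on the other 28 tumours it ran from 12739 to 25371. On the bright arrays the members did not follow the rest of the probes. Young irradiated replicate 2 had a 75th percentile of 1123 over all probes, and middle-aged unirradiated replicate 1 one of 863, against 91.6 to 462 on the other tumours. Their members' median intensities were nevertheless 18117 and 19377, well inside the range of the other arrays. After quantile normalization the members' mean level was 12.79 and 13.02 on these bright arrays. It was 13.28 on middle-aged unirradiated replicate 4, whose 75th percentile of 462 was the next highest, and between 13.44 and 13.57 on the remaining 27 tumours. On the cell arrays it ran from 13.38 to 13.52. Both bright arrays enter the comparisons below, so each median is also given without them. Middle-aged unirradiated replicate 4 stays in those medians.

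**Figure D1:**
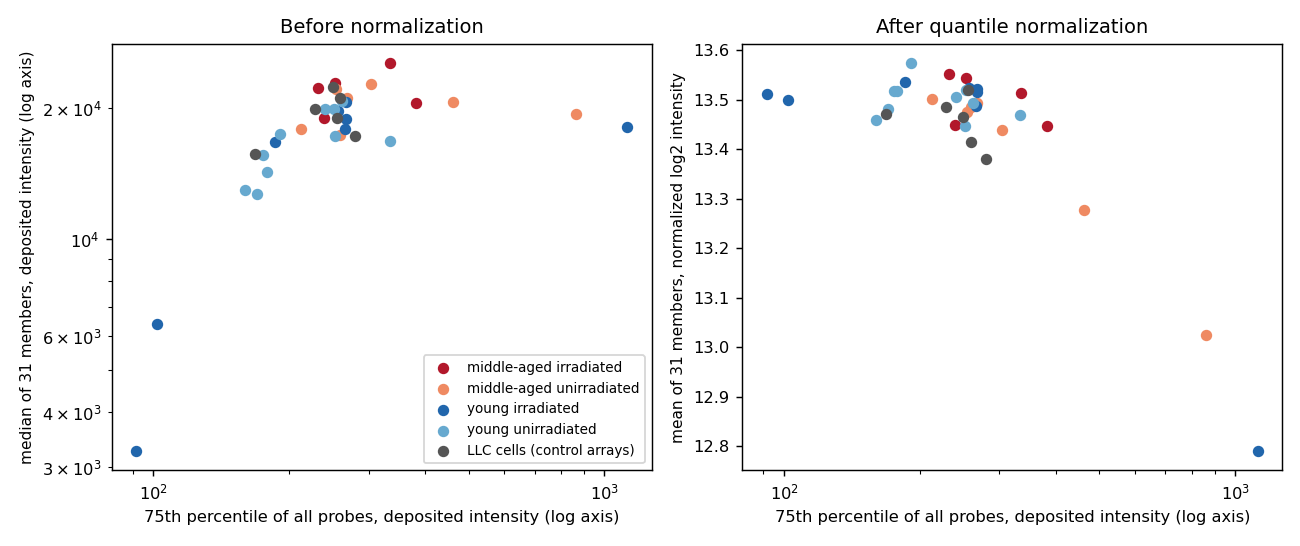
Each point is 1 array, coloured by group. The x axes give the 75th percentile of deposited intensity over all probes (log axis). On the left, the y axis is the median deposited intensity of the 31 tested members (log axis), at 3266 and 6379 on the dim arrays and between 12739 and 25371 on the other tumours. On the right, the y axis is the members' mean normalized log2 intensity, lowest on the bright arrays at 12.79 and 13.02.

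Part of the agreement between members came from these arrays. With group means removed, the median correlation between pairs of the 30 members detected on all tumours was 0.20 over 30 tumours, and 0.10 over the 26 tumours left without the bright and dim arrays. Each gene's correlation with the mean of the other members was highest for Rps24 (0.97), Rpl12 (0.95) and Rps10 (0.94). Without the bright and dim arrays these values were 0.74, 0.50 and 0.34. It was negative for Rpl27 (-0.59 over 30 tumours, -0.53 over 26) and for Rps6 (-0.51 and -0.17), the small-subunit protein phosphorylated by S6 kinases. Over 30 tumours it was also below 0 for Rplp1 (-0.26), Rpl4 (-0.17), Rps9 (-0.10) and Rplp0 (-0.02). These points share array brightness and the normalization, and the values are descriptions over arrays.

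Host age in unirradiated mice came with slightly lower member values, in both subunits alike, and no member passed the test. The median log2 difference of middle-aged minus young unirradiated tumours was -0.12 over the 31 members, 6 above and 25 below 0, against 0.00 over all genes. The small subunit had a median of -0.12 (3 above, 12 below 0) and the large subunit one of -0.13 (3 above, 13 below 0). None of the 31 members and none of the 10907 genes (0%) had an adjusted p under 0.05 in limma's test with Benjamini-Hochberg adjustment. At an unadjusted p under 0.05, 620 genes were higher and 881 lower. Without the bright arrays the members' median was -0.04. In the same comparison the 16 tested skeletal muscle markers had a median of -1.40, with 0 above 0 and 0 called, and their mean level per tumour ran from 5.37 to 7.18 in middle-aged unirradiated and 5.39 to 11.26 in young unirradiated tumours. Endothelial markers had a median of -0.36 (1 of 10 above 0), neutrophil markers one of -0.62 (0 of 8), red blood cell markers one of -0.43 (0 of 7) and cell cycle genes one of -0.26 (1 of 10), with 0 called in each. Fibroblast markers averaged 10.29 in both groups. Macrophage markers averaged 9.79 in middle-aged and 9.69 in young unirradiated tumours, and T and NK cell markers 6.78 and 6.83. The part of these cells in the members' values was not tested. In bulk tumour, fewer cells of a type and less RNA per cell cannot be told apart.

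The member with the smallest p was Rps3a1, a small-subunit protein with 1 listed probe. Its lowest, median and highest log2 values were 11.08, 11.45 and 11.67 in middle-aged unirradiated tumours, against 11.56, 11.98 and 12.54 in young unirradiated tumours. Of the 7 middle-aged tumours 5 lay below every young one, and the groups overlapped in the remainder. The difference was -0.59 (SE 0.13), with an unadjusted p of 0.000121 that ranked 6 of 10907 and an adjusted p of 0.131 in limma. With array quality weights it was -0.62 (adjusted p 0.00836), in a fit where 2.75% of all genes were called lower. Without the dim arrays, which belong to another group, it was -0.59 (adjusted p 0.0386, with 0.193% of genes called lower), and without young unirradiated replicate 5 it was -0.64 (adjusted p 0.0352, with 0.908% called lower). Over all alternatives run it lay between -0.74 in the authors' values and -0.42 under median scaling. It passed in neither of these (adjusted p 0.132 and 0.790, limma). It also missed the threshold under bright-probe scaling (adjusted p 0.318), with a brightness covariate (0.308), after cyclic loess (0.0575) and without dim and bright arrays (0.0861).

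The next smallest p-values in each direction did not pass either. Rps6 averaged 14.20 ± 0.19 in middle-aged and 13.94 ± 0.26 in young unirradiated tumours (SD, n = 7 and 10), a difference of 0.26 (adjusted p 0.298, limma), and it was -0.23 in the authors' values. Rplp0, the base of the acidic stalk that recruits elongation factors, averaged 10.99 ± 0.27 in middle-aged and 11.28 ± 0.31 in young unirradiated tumours, a difference of -0.29 (adjusted p 0.2999, limma). Rpl27 differed by 0.22, Rps9 by 0.10 and Rps24 by -0.29, with adjusted p-values of 0.395, 0.593 and 0.515.

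With age in irradiated mice the members leaned the other way by less. The median of middle-aged minus young irradiated tumours was 0.07 (23 above, 8 below 0), against 0.02 over all genes, with 0.07 in the small and 0.07 in the large subunit. No member passed, against 0.00917% of all genes (1 gene). Without the bright arrays, 1 of which is in the young irradiated group, the median was 0.00. Both dim arrays are in that group as well. The median was 0.07 without the dim arrays and -0.01 without dim and bright arrays. The smallest p belonged to the stalk protein Rplp1. It had 14.34, 14.31, 14.48, 14.21 and 14.29 in the 5 middle-aged irradiated tumours, against a lowest of 14.44, a median of 14.51 and a highest of 14.58 in the 8 young irradiated tumours. Of the 5 middle-aged tumours 4 lay below every young one. The difference was -0.19 (SE 0.07, adjusted p 0.583, limma), and 0.28 under median scaling. Red blood cell markers averaged 9.23 in middle-aged and 9.68 in young irradiated tumours, and fibroblast markers 10.23 and 9.84. Endothelial markers averaged 8.09 and 8.25, neutrophil markers 8.25 and 8.30, and T and NK cell markers 6.66 and 6.70. Muscle markers averaged 6.86 and 6.76, and macrophage markers 9.80 and 9.74. The part of these cells in the members' values was not tested.

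Irradiation in young mice left the members close to 0. The median of irradiated minus unirradiated tumours was -0.05 (8 above, 23 below 0), against -0.01 over all genes, with -0.04 in the small and -0.07 in the large subunit. No member and none of all genes (0%) passed, while 204 genes were higher and 400 lower at an unadjusted p under 0.05. The young irradiated group holds both dim arrays and 1 bright array. The median was 0.02 without the bright arrays, -0.09 without the dim arrays and 0.04 without dim and bright arrays. The most negative value among the named members was that of Rps24 at -0.25 (SE 0.19, adjusted p 0.907, limma), with values of 12.44, 14.28 and 14.38 (lowest, median, highest) in irradiated and 14.15, 14.33 and 14.39 in unirradiated tumours. Its lowest value is that of the bright array, and without it the lowest irradiated value was 14.01. Red blood cell markers averaged 9.68 in irradiated and 10.42 in unirradiated young tumours, and fibroblast markers 9.84 and 10.29. Neutrophil markers averaged 8.30 and 8.61, muscle markers 6.76 and 7.18, and T and NK cell markers 6.70 and 6.83. Endothelial markers averaged 8.25 and 8.33, and macrophage markers 9.74 and 9.69. The part of these cells in the members' values was not tested.

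Irradiation in middle-aged mice came with values slightly above 0. The median of irradiated minus unirradiated tumours was 0.13 (22 above, 9 below 0), against 0.00 over all genes, with 0.15 in the small and 0.13 in the large subunit. No member and none of all genes (0%) passed, and at an unadjusted p under 0.05, 414 genes were higher and 276 lower. Without the bright arrays, 1 of which is in the middle-aged unirradiated group, the median was 0.07. Muscle markers had a median of 1.12, with all 16 above 0 and 0 called. Neutrophil markers had one of 0.31 (8 of 8 above 0) and red blood cell markers one of -0.53 (1 of 7 above 0), with 0 called in each. The mean level of muscle markers per tumour ran from 5.38 to 9.57 in irradiated and 5.37 to 7.18 in unirradiated middle-aged tumours. The part of these cells in the members' values was not tested.

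Rps3a1 and Rplp0 had the smallest p-values among the members in that comparison. Rps3a1 had 11.86, 11.80, 11.87, 11.77 and 11.52 in the 5 irradiated tumours, against 11.08, 11.45 and 11.67 (lowest, median, highest) in the 7 unirradiated ones. Of the irradiated tumours 4 lay above every unirradiated one, and the difference was 0.40 (SE 0.16, adjusted p 0.676, limma). Rplp0 had 11.16, 11.57, 11.22, 11.51 and 11.30 in irradiated tumours, against 10.62, 11.0005 and 11.34 in unirradiated ones. Its difference was 0.36 (SE 0.14, adjusted p 0.676, limma). With array quality weights it was 0.45 with an adjusted p of 0.0366, in a fit where 1.35% of all genes were called higher. Rplp1 differed by -0.15, Rps6 by -0.24 and Rpl27 by -0.11, and each of these had the opposite sign in the authors' values and under median scaling.

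The difference between the irradiation effects, middle-aged minus young, had a median of 0.20 over the members (24 above, 7 below 0), against 0.03 over all genes. It was 0.19 in the small and 0.21 in the large subunit. No member and none of all genes (0%) passed. Both groups with a bright array enter it, and without these arrays the median was 0.06. It was 0.23 without the dim arrays and 0.04 without dim and bright arrays. Muscle markers had a median of 1.61 here (16 of 16 above 0) and neutrophil markers one of 0.57 (8 of 8), with 0 called in each. Fibroblast markers averaged 10.23 in irradiated and 10.29 in unirradiated middle-aged tumours, and 9.84 and 10.29 in young ones. The part of these cells was not tested. Among the named members the estimates were 0.56 for Rps24 (SE 0.30), 0.45 for Rps3a1 (SE 0.21), 0.43 for Rps15 (SE 0.22) and -0.32 for Rps6 (SE 0.17), each with an adjusted p of 0.981 in limma. These 5 tumour contrasts share samples, so their signs are not independent of each other.

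**Figure D2:**
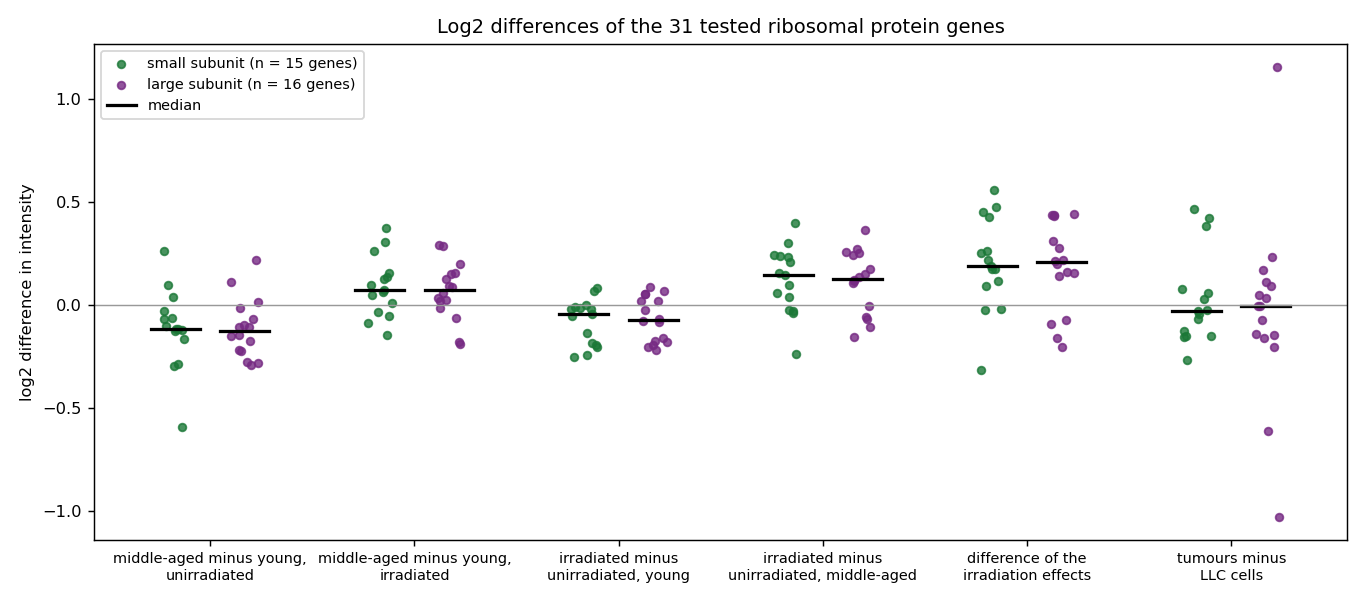
Each point is the log2 difference of 1 tested gene in 1 comparison, with the 15 small-subunit genes left of the 16 large-subunit genes and a bar at each median. Medians of the subunits lie within 0.03 of each other in every comparison, and the genes furthest from 0 are Rpl22 at 1.16 and Rpl14 at -1.03 in tumours minus LLC cells.

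The medians of both subunits were close in all 6 comparisons, with no test between them. The small-subunit median minus the large-subunit median lay between -0.02 and 0.03 in each. For scale, the mean of the small-subunit members minus that of the large-subunit members had a standard deviation of 0.0725 between tumours of a group. Under the alternative settings the difference between the subunit medians ran from -0.10 to 0.09.

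Tumours were also set against cultured cells of the same line, with the 6 cell arrays averaged to 1 sample that was assumed to vary like the tumours. Tumours hold host cells that the cultured line lacks: 11 of 13 tested macrophage markers, 6 of 10 endothelial markers and 6 of 9 fibroblast markers were called higher in them. After quantile normalization the members lay near the median of all genes, which other scalings changed (cyclic loess gave 0.42 for the members and the authors' values 0.27). Their median difference was -0.03 (13 above, 18 below 0), against -0.07 over 11105 genes, with -0.03 in the small and -0.00 in the large subunit. Of the 31 members 1 was called higher, where 11.7% of all genes were, and 1 lower, where 9.01% were.

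The member that rose was Rpl22, a large-subunit protein that is dispensable for bulk translation in mice and is known for its role in T-cell development. The 5 middle-aged irradiated tumours had 11.57, 11.56, 11.48, 11.80 and 11.55. The lowest, median and highest were 11.43, 11.70 and 11.91 in middle-aged unirradiated, 11.29, 11.56 and 11.80 in young irradiated, 10.93, 11.57 and 11.93 in young unirradiated tumours, and 10.31, 10.42 and 10.58 on the 6 cell arrays. All 30 tumours lay above all 6 cell arrays, and the 4 tumour groups overlapped. The difference was 1.16 (SE 0.24, adjusted p 0.000832, limma). The tumour groups averaged 11.59, 11.66, 11.57 and 11.55 in the same order. It missed the threshold under median scaling with all arrays (0.67, adjusted p 0.693) and without the dim and bright arrays (0.84, adjusted p 0.0705). Under the other alternatives run it lay between 1.10 and 1.29, with adjusted p-values of 0.000114 to 0.00315 in limma. Of 3007 other probes at levels between 10 and 12, 27.8% were called in this comparison, higher or lower. Rpl22 had 1 listed probe, which all alternatives used. A difference of the gene therefore cannot be told from one of that probe. Rpl22l1, the gene's close relative, was chosen after the values were seen. It was detected on 27 of 30 tumours and 5 of 6 cell arrays and differed by -0.26 (SE 0.46, adjusted p 0.741, limma).

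Rpl14, a large-subunit protein with 1 listed probe, was called lower in tumours, at values near background. The highest tumour value was 6.14 and the median 5.27, against a lowest of 5.89, a median of 6.19 and a highest of 6.82 on the cell arrays. In all, 28 of 30 tumours lay below every cell array. The fitted difference was -1.03 (SE 0.37, adjusted p 0.0429, limma), but with most tumours at background its size is not fixed. It missed the threshold without background correction (-0.44, adjusted p 0.0842), in the authors' values (-0.42, adjusted p 0.0687) and under median scaling (-0.81, adjusted p 0.268). It also missed it under bright-probe scaling (-0.19, adjusted p 0.846) and with no detection filter (adjusted p 0.0685). The stalk protein Rplp0 averaged 11.24 in tumours and 11.86 on cell arrays, with 29 of 30 tumours below every cell array. Its difference of -0.61 (SE 0.25) had an adjusted p of 0.0825 in limma, and it passed under cyclic loess (-0.71, adjusted p 0.045) and with array quality weights (-0.63, adjusted p 0.0364). In those fits 12.3% and 14.5% of all genes were called lower. Under median scaling without the dim and bright arrays Rplp0 was -1.14 (adjusted p 0.0143), the 1 member called there, where 17.2% of all genes were lower.

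**Figure D3:**
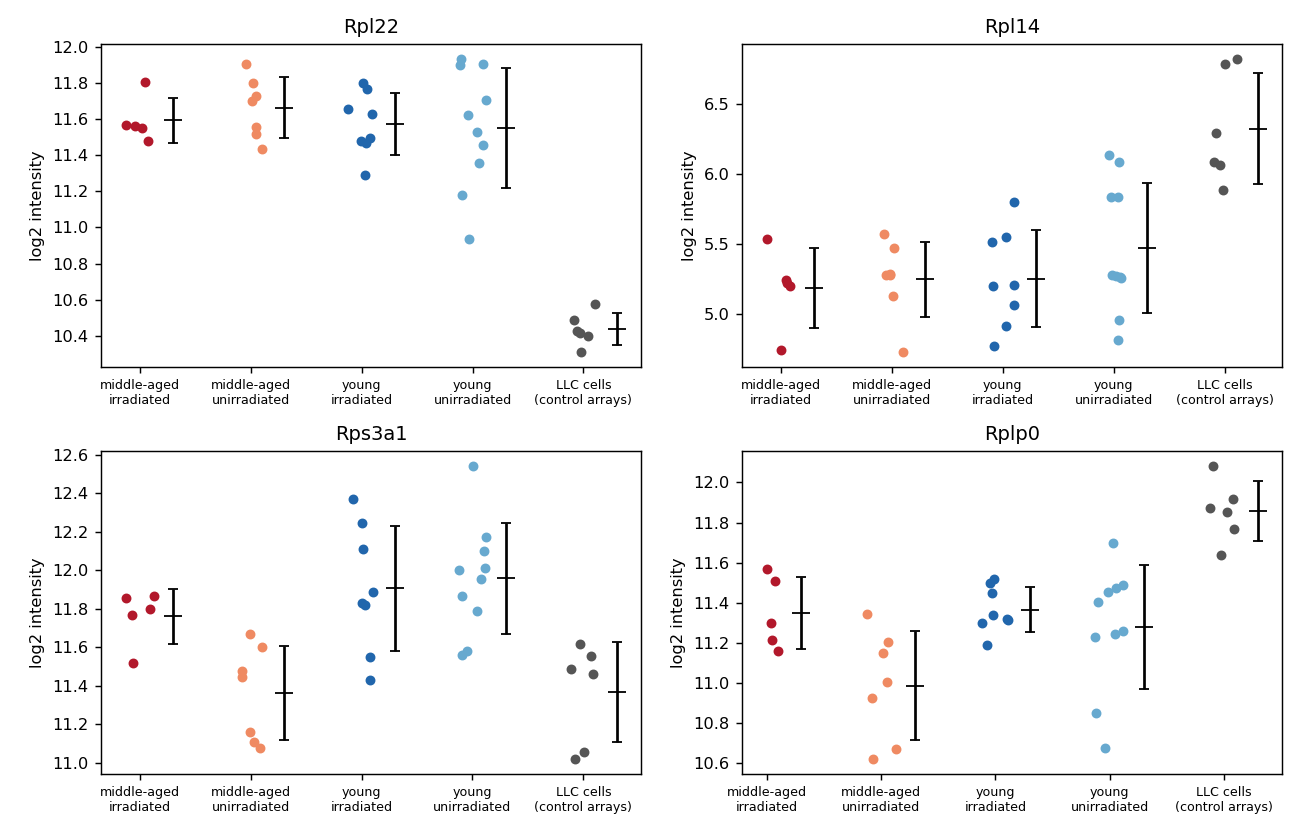
Normalized log2 intensity of Rpl22, Rpl14, Rps3a1 and Rplp0 in each array (points) by group, with the mean and SD beside the points. Rpl22 is above all 6 cell arrays in all 30 tumours, Rpl14 and Rplp0 are mostly below them, and Rps3a1 is lowest among tumours in the middle-aged unirradiated group.

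The brightest probe of a gene stood for it above, and some dimmer probes of the same genes differed more between tumours and cells. Of the 43 detected probes of members, 5 were called, 1 higher (where 9.78% of all 18147 probes were) and 4 lower (where 9.79% were). None of the 23 probes with a mean level over 14 was among them, and their median difference was 0.07 in size. The 5 called probes all had a mean level under 12. Probes of other genes also differed less when bright. The 32 over 14 differed by a median of 0.12 in size and 3.13% of them were called. Of 3007 other probes between 10 and 12, 27.8% were called, at a median size of 0.40. Whether transcripts of the brightest probes differed by more than their intensities do was not tested.

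Rps19, Rpl38 and Rps24 each had a bright probe that was not called and a dimmer one that was. For Rps19, a small-subunit protein mutated in inherited red-cell failure in people, the bright probe averaged 14.28 in tumours and 14.36 on cell arrays. Its dim probe, ILMN_2754355, had 5.24, 6.12 and 6.88 (lowest, median, highest) in tumours, against 8.30, 8.37 and 8.58 on cell arrays. All 30 tumours lay below all 6 cell arrays, and the dim probe's difference was -2.36 (SE 0.38, adjusted p 3.06e-05, limma over probes), while the bright probe's was -0.07 (SE 0.24). The dim probe was detected on 25 of 30 tumours, with a median deposited intensity of 154. Its tumour values thus lie near background, and the size of its difference is not fixed.

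For Rpl38, a large-subunit protein known for its part in translating Hox messages in the mouse embryo, the bright probe differed by 0.17 (SE 0.16) and the dimmer one, ILMN_2594971, by -1.11 (SE 0.28, adjusted p 0.00467). The dimmer probe had 9.88, 10.46 and 11.01 in tumours, against 11.31, 11.55 and 11.92 on cell arrays, with all 30 tumours below. Rps24, a small-subunit gene with transcripts spliced in different ways near their end, had 3 detected probes. The bright one differed by -0.16, ILMN_2625060 by -1.29 (SE 0.32, adjusted p 0.00476, limma over probes) and ILMN_1214875 by 0.53 (SE 0.21, adjusted p 0.0824). The first of these dim probes was below all cell arrays in 30 of 30 tumours, and the second was above all of them in 20. Where each probe lies in its transcript was not used here, so isoforms cannot be assigned.

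With the mean of a gene's detected probes in place of the brightest, Rps19 (-1.22) and Rpl38 (-0.47) were called lower beside Rpl14, where 11.6% of all genes were. The Rps19 value includes its dim probe near background. Over all 10 members with several detected probes, 5 had probes of opposite sign between tumours and cells, and 2 or 3 in each of the tumour comparisons. No member probe was called in any tumour comparison, where at most 0.00564% of the 17724 probes were called higher and 0.0113% lower (age in unirradiated mice) and 0% in the other tumour comparisons.

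**Figure D4:**
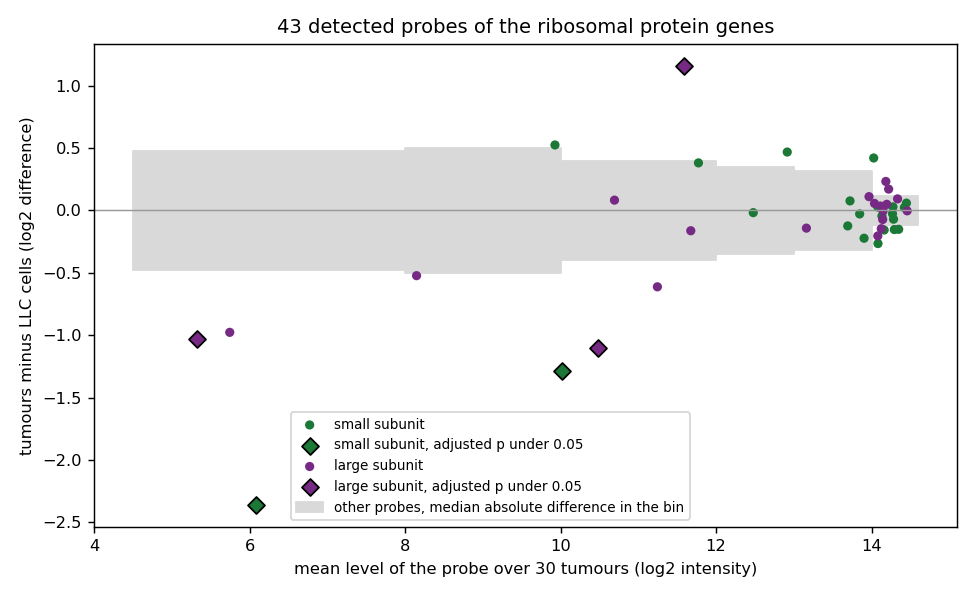
Each point is 1 of the 43 detected member probes, with its mean level over 30 tumours on the x axis and its difference between tumours and LLC cells on the y axis. Diamonds mark adjusted p under 0.05, and the grey band is the median size of difference of all other probes in the same range of brightness, which narrows to 0.12 over 14.

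Mitochondrial ribosomal protein, ribosome biogenesis and RNA polymerase I genes were called lower in tumours than in cells at a share above the 9.01% of all genes. Of 72 tested mitochondrial ribosomal proteins, 36 were lower and 0 higher, with a median of -0.68, such as Mrps2 (-1.35, SE 0.21) and Mrps7 (-1.04, SE 0.17). Of 29 ribosome biogenesis genes, which assemble the subunits in the nucleolus, 13 were lower and 0 higher, with a median of -0.65. They included Ncl, the nucleolar protein nucleolin (-1.21, SE 0.25), and Pes1, needed for large-subunit maturation (-1.41, SE 0.30). Of 9 RNA polymerase I genes 3 were lower and 0 higher (median -0.46). Of 22 initiation factors 1 was lower and 0 higher (median -0.32), of 7 elongation factors 1 was lower and 0 higher (-0.10), and of 15 regulators of ribosomal protein output 2 were higher and 0 lower (0.01). The 2 were Tsc1, an inhibitor of mTOR signalling (0.92, SE 0.29), and Mknk1, a kinase of an initiation factor (0.74, SE 0.25). Of all genes 11.7% were called higher, and whether 2 of 15 departs from that share was not tested. Of 26 further cytosolic ribosomal proteins 2 were lower and 0 higher (median -0.09), namely Rpl7l1 and Rps27l, which are relatives of ribosomal protein genes. Whether 2 of 26 departs from the 9.01% of all genes was not tested either. Cell cycle genes were lower for 8 of 10 (median -1.23). These lists are mostly of moderate brightness and were not compared with the members by a test. Their counts and medians are given after quantile normalization only. Of all 11105 genes, 1001 were called lower there, against 96 under median scaling and 1365 after cyclic loess. How far the shares of the lists change with the scaling was not tested.

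In the tumour comparisons none of these lists had a called gene. The median with age in unirradiated mice was -0.02 for mitochondrial ribosomal proteins, 0.00 for ribosome biogenesis, -0.03 for the further cytosolic ribosomal proteins and -0.02 for initiation factors, against -0.12 for the members. With irradiation in middle-aged mice the same lists had 0.04, 0.06, 0.07 and 0.10, against 0.13 for the members.

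The members' medians depended on how arrays were put on a common scale. With age in unirradiated mice the median was -0.12 after quantile normalization, -0.30 after cyclic loess, -0.27 under median scaling (where all genes had 0.22) and -0.62 in the authors' own normalized values. It was -0.44 when arrays were centred on 1574 bright probes (levels 11.24 to 14.46, most of them dimmer than most members), and 0.02 with array brightness as a covariate. With age in irradiated mice it was 0.07, -0.23, 0.74 (all genes 0.66), -0.07, -0.09 and 0.12 in the same order, so its direction was not settled. For irradiation in middle-aged mice every setting gave a median above 0, between 0.07 and 0.44 (median scaling, where all genes had 0.11). For irradiation in young mice it ran from -0.49 under median scaling (all genes -0.31) to 0.16 after cyclic loess.

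Between tumours and cells the median was -0.03 after quantile normalization, 0.42 after cyclic loess, -0.33 under median scaling (all genes -0.23), 0.27 in the authors' values and 0.30 with centring on bright probes (all genes 0.40). The direction of the members as a group against the cells therefore changed with the scaling. Their median minus that of all genes was -0.11 under both median and bright-probe scaling, so all genes shared the sign change between these. It was 0.42 after cyclic loess and 0.33 in the authors' values. Rpl22, measured by 1 probe, was above 0 under each alternative run, with the lowest value of 0.67 under median scaling.

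**Figure D5:**
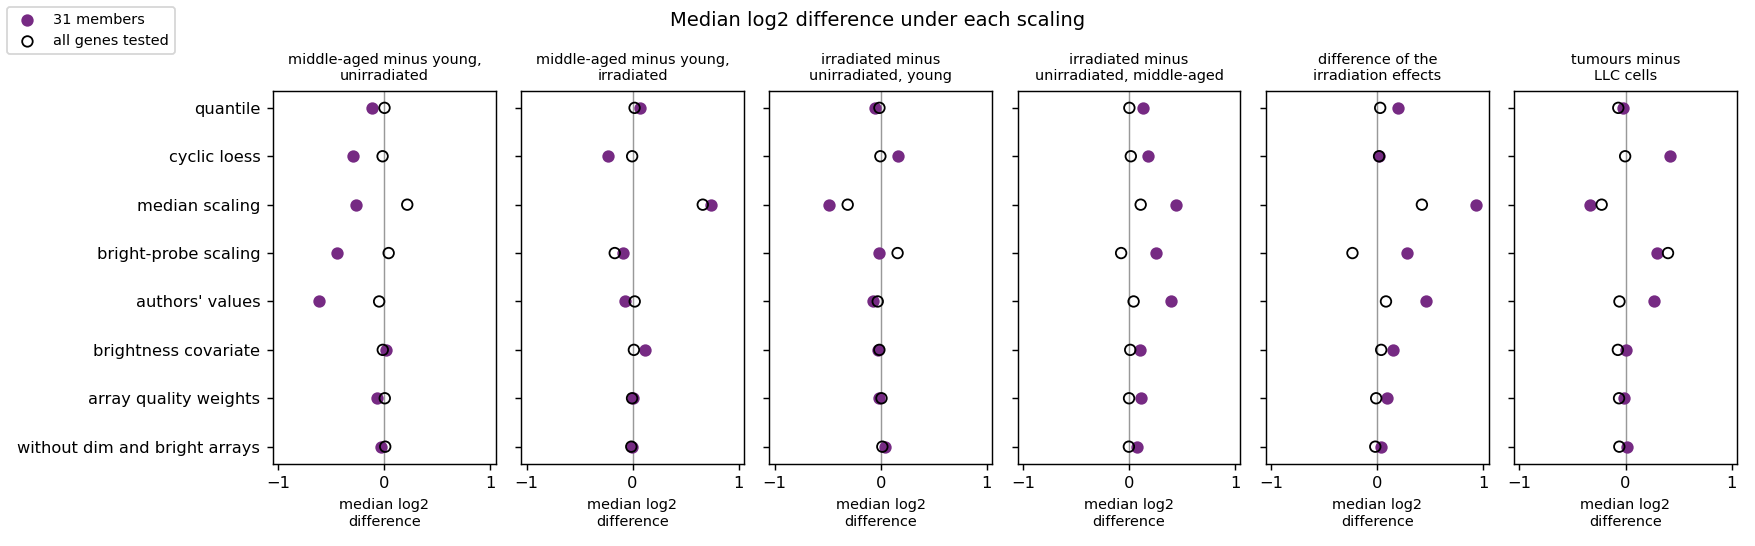
Median log2 difference of the 31 members (filled) and of all genes tested (open) in the 6 comparisons, under 8 settings from top to bottom. In middle-aged minus young unirradiated tumours the members' median runs from -0.62 in the authors' values to 0.02 with a brightness covariate. In tumours minus LLC cells it runs from -0.33 under median scaling to 0.42 after cyclic loess.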

How the data were processed

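RNA of 30 tumours and 6 LLC cell arrays was hybridized to Illumina Mouse WG-6 BeadArrays and read with GenomeStudio, per the submitters' processing notes (version not stated). The deposited values were mean bead intensity per probe, not normalized, with a detection p-value, per the file headers. The authors' own normalized intensity values, rank-variant normalized per the series' design text, served as an alternative; their offset is unknown, and 1036 of them are below 0.

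The 44 members and all gene lists were chosen with earlier results of these data known. Probes were named by the platform table: 34885 of 45281 had 1 symbol. Intensities were background-corrected (normexp by detection p-value, offset 16), quantile-normalized and taken to log2 (limma 3.58.1, R 4.3.3). Genes were tested by their brightest probe if detected (p under 0.05) on at least 5 tumours. One limma fit held the 4 tumour groups. A second added the cells, with their 6 technical arrays averaged to 1 sample. Benjamini-Hochberg adjustment ran over all genes tested, at 0.05. Named genes were, in each comparison, those that passed, or the 3 members with the smallest p in each direction where none passed. Arrays differed in brightness, and the number of arrays limits precision. On simulated data, 176 of 200 genes given a log2 change of 1 with age in unirradiated mice were recovered among 10907 genes, as were 158 of 200 for irradiation in middle-aged mice (with 14 false calls) and 108 of 200 for the difference between the irradiation effects. The simulation gave each gene independent errors, with no dim or bright arrays and no top of the range. Its change of 1 was larger than the -0.59 of Rps3a1 with age in unirradiated mice. These counts therefore do not carry over to the members. Alternatives covered normalization, background correction, filters, array weights, probe choice and arrays left out. Those without the bright arrays only, and those combining other scaling with arrays left out, were chosen after seeing the data. Replicate numbers are shared between groups, but same-numbered tumours correlated between -0.32 and 0.38, so they were not treated as pairs. Proteins and probe positions were not used here.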

Additional observations from a re-analysis of the deposited data

Results flagged for a closer look

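In groups of 4 to 10 tumours, the highest or lowest sample was flagged where its gap to its nearest neighbour took an unusually large share of the group's range. Of 84 such tests 18 flagged a sample; chance flags about 1 in 20 groups, and most items share arrays and so are not independent. All values are normalized log2 intensities.

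The bright array of young irradiated replicate 2 carried 9 of the flags, all low. Its mean over all members was 12.79 (nearest tumour of its group 13.49), over the small subunit 13.14 (13.89) and over the large subunit 12.46 (13.08). Members with a level over 13 averaged 13.34 on it (14.13), and those detected on all tumours with a level under 13 averaged 11.51 (11.89). Rps24 was at 12.44 (14.01), Rps15 at 12.73 (13.45), Rps7 at 12.46 (13.75) and Rps19 at 13.78 (14.20). Middle-aged unirradiated replicate 1, the other bright array, carried 3 low flags. Members with a level over 13 averaged 13.62 on it (13.96), Rps15 was at 12.95 (13.51) and Rps7 at 12.94 (14.12).

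The other 6 flags were in the middle-aged irradiated group. Replicate 3 was high for Rps6 at 14.17 (nearest 13.96), for Rpl27 at 14.52 (14.03) and for Rps15 at 14.20 (13.89). Replicate 5 was low for Rps3a1 at 11.52 (11.77), replicate 1 high for Rpl38 at 14.32 (14.11) and replicate 4 high for Rpl22 at 11.80 (11.57).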

How the results depend on the processing

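The members' median moved by more than its spread between tumours (SD 0.304) in these cases. With age in unirradiated mice it was -0.62 in the authors' values and -0.44 under bright-probe scaling. Under median scaling it was 0.74 with age in irradiated mice (all genes 0.66) and -0.49 for irradiation of young mice (all genes -0.31). For irradiation of middle-aged mice it was 0.44 there (all genes 0.11). It was 0.93 for the difference between the irradiation effects (all genes 0.42) and -0.33 against LLC cells (all genes -0.23). All genes moved in the same direction in each of these cases. Against cells the members' median was also 0.30 under bright-probe scaling (all genes 0.40). It was 0.42 after cyclic loess and 0.33 in the authors' values without dim and bright arrays. The small-subunit minus large-subunit median moved by more than its spread (SD 0.0725) in the following. With age in unirradiated mice it was 0.093 in the authors' values, 0.094 under median and bright-probe scaling and 0.087 under median scaling without dim and bright arrays. It was -0.050 with irradiation in young mice without dim arrays, and -0.057 with irradiation in middle-aged mice under median scaling and in the authors' values, both without dim and bright arrays. For the difference between the irradiation effects it was 0.081 in the authors' values and 0.082 under median and bright-probe scaling. Median and bright-probe scaling gave the same difference between the subunits in every comparison, so they are not separate results here.

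Of members called lower with age in unirradiated mice there was 1 (Rps3a1) with array quality weights and 1 without dim arrays, and leaving out 1 tumour gave 0 to 1. Of members called higher with irradiation in middle-aged mice there was 1 (Rplp0) with array quality weights. Against cells, members called higher were 0 under median scaling with all arrays and without dim and bright arrays. Members called lower were 0 in the authors' values (with and without dim and bright arrays), without background correction, under median or bright-probe scaling, with no detection filter and with detection on all arrays. They were 2 after cyclic loess, 2 with array quality weights and 3 with the mean of detected probes (Rpl14, Rps19 at -1.22 and Rpl38 at -0.47). The 1 called lower under median scaling without dim and bright arrays was Rplp0, not Rpl14.

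Among 32 named results, those that changed sign were not past the threshold. In the authors' values these were, with age in unirradiated mice, Rps6 -0.23, Rpl27 -0.31 and Rps9 -0.55; with irradiation in young mice, Rpl38 -0.0090 and Rps6 -0.039; with irradiation in middle-aged mice, Rplp1 0.26, Rps6 0.12 and Rpl27 0.26; and for the difference, Rplp1 0.16, Rps6 0.16 and Rpl27 0.35. Under bright-probe scaling they were Rps6 -0.052, Rpl27 -0.14 and Rps9 -0.37 with age in unirradiated mice, Rpl14 0.39 with irradiation in young mice, Rplp1 0.12 and Rpl27 0.12 with irradiation in middle-aged mice, and Rpl27 0.17 for the difference. After cyclic loess they were Rps9 -0.20 with age in unirradiated mice, Rps24 0.14 with irradiation in young mice, and Rplp1 0.020 and Rpl27 0.037 with irradiation in middle-aged mice. Under median scaling they were Rps9 -0.20 with age in unirradiated mice; Rplp1 0.28, Rpl38 0.46 and Rps2 0.44 with age in irradiated mice; Rpl38 -0.43, Rplp1 -0.33 and Rps6 -0.46 with irradiation in young mice; Rplp1 0.31, Rps6 0.17 and Rpl27 0.31 with irradiation in middle-aged mice; and Rplp1 0.63, Rps6 0.63 and Rpl27 0.82 for the difference. With a brightness covariate Rps24 was 0.017 with age in unirradiated mice, and without dim and bright arrays Rps15 was 0.044 with irradiation in young mice. The cause of these changes was not tested.

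With 1 tumour left out at a time, the members' median ran from -0.15 to -0.04 for age in unirradiated mice, 0.00 to 0.10 for age in irradiated mice, -0.09 to 0.02 for irradiation in young mice, 0.07 to 0.16 for irradiation in middle-aged mice, 0.11 to 0.23 for the difference and -0.04 to -0.00 against cells. With the replicate block the members' median for age in unirradiated mice was -0.10 and Rps3a1 was -0.46 (adjusted p 0.372, limma); all 30 named results of the tumour contrasts kept their direction and call. Over the 5 to 8 shared numbers of a comparison, a sample correlated best with its own number in at most 1 case. That gives no sign of pairs, but so few shared numbers cannot exclude them. Intensities near the top of the range and values near background, as for Rpl14 and the dim probe of Rps19, limit what these arrays can show.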
